A study of Mus musculus with 2 samples.

Results

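Immediate early genes are switched on within minutes of synaptic activity, from transcription factors that are already present in the resting neuron. Their transcripts are short-lived, and most encode transcription factors or feedback regulators that shape the later response. N6-methyladenosine (m6A) is a methyl mark on adenosines in RNA, placed mostly in the nucleus and known for shortening the life of many mRNAs. The 10 genes described here were chosen by name, with earlier results of these data known: Jun, Junb, Fos, Fosb, Egr1, Nr4a1, Npas4, Per1, Dusp1 and Arc. They are set against the 6929 genes that had a listed m6A readout in nuclei of mouse cortex sorted for the neuronal protein NeuN.

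The material came from mice with the genotype APOBEC1-YTH, in which an RNA-editing deaminase (APOBEC1) is joined to a YTH domain that binds m6A and thereby converts nearby cytidines to uridines. All mice received tamoxifen at 20 mg/kg each 24 hours for 5 days, beginning at 10 weeks of age, and cortex was taken 7 days after the last dose. The tissue was digested with papain, and nuclei were extracted, fixed in 50% ethanol, stained for NeuN and sorted. There were 2 libraries of this single group, and the authors combined them into 1 list of C-to-U sites, so no spread between libraries can be given. The sources used here do not give the animals behind each library, the promoter that drives the fusion or the sequencing depth, and libraries without the fusion were not analysed here. The comparisons are therefore descriptions within 1 list, with no test.

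The listed level of a site is the percentage of reads with the converted base. Across all 17755 sites the median level was 3.64%, with quartiles of 2.01% and 6.90%. Markers fixed for cell types were counted for the sort. A site was listed for 4 of 10 neuronal markers, 6 of 8 astrocyte markers, 7 of 8 oligodendrocyte markers, 3 of 6 microglial markers and all 6 endothelial and pericyte markers. These lists held 10 neuronal, 148 astrocyte, 48 oligodendrocyte, 14 microglial and 57 endothelial and pericyte marker sites. The median level over the sites of each list was 7.69% for neuronal markers, 1.86% for astrocyte, 1.53% for oligodendrocyte, 2.39% for microglial and 2.33% for endothelial and pericyte markers. Each list of non-neuronal markers thus had a larger share of genes with a site, and more sites, than the neuronal list. Over all protein-coding genes the share with a site was 28.3%. The median levels of these lists were not checked against read depth, which is not given. The RNA in the list came from sorted nuclei, and the part of other cell types in the values below was not tested.

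Of the 10 immediate early genes, 6 had a listed site (60.0%), against 28.3% of all 21900 protein-coding genes in the RefSeq table. As the genes were chosen with earlier results known, this share is only a description. These 6 genes held 14 sites. Per1 had 4 sites, Junb and Dusp1 had 3 each, Jun had 2, and Nr4a1 and Npas4 had 1 each. Fos, Fosb, Egr1 and Arc had none. All 14 sites lay inside the RefSeq span of their gene, and no member's span overlapped another gene in that table. Without coverage, absence from the list does not separate a lack of m6A from a lack of reads. At least 2 sites were listed for 4 of the 6 genes (66.7%), against 50.8% of all listed genes, and at least 3 sites for 3 of the 6 (50.0%), against 30.9%.

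The members are short genes, with a median span of 3620 bp against 17146 bp for all protein-coding genes. Short genes carried sites less often in the list as a whole. Of the 6 members spanning under 5 kb, 3 had a site (Jun, Junb and Dusp1), and 3 did not (Fos, Egr1 and Arc). Among all protein-coding genes of that size 8.54% had a site. Of the 4 longer members, 3 had a site (Nr4a1, Npas4 and Per1) and Fosb did not. Among protein-coding genes between 5 kb and the length of the longest member, Nr4a1, the share was 24.0%. These shares cover genes whether or not cortex expresses them.

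**Figure D1:**
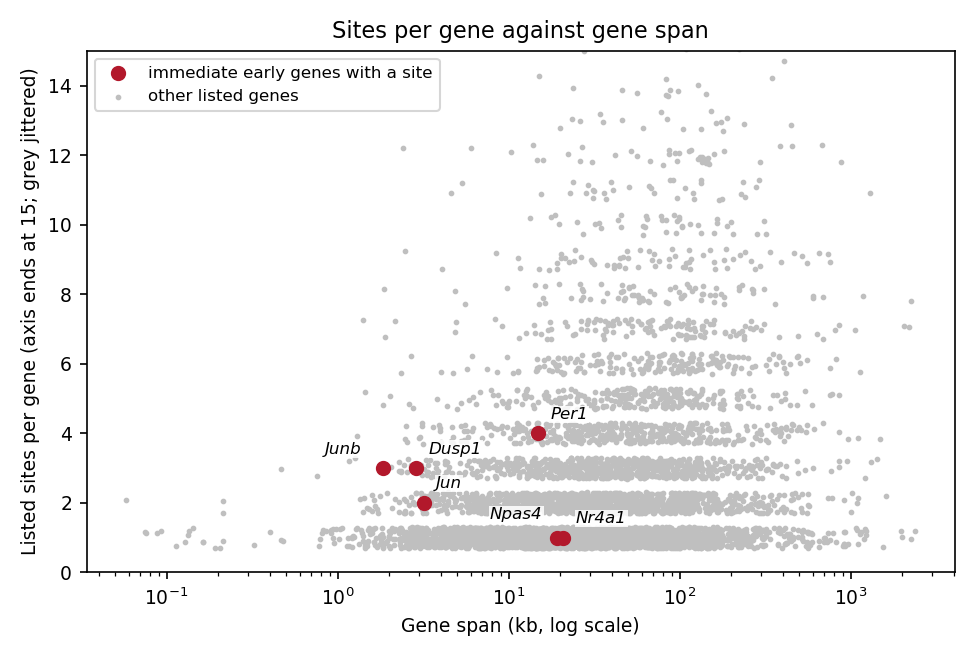
Number of listed sites per gene (vertical axis) against the length of the gene span in kb (horizontal axis, log scale), with the immediate early genes that had a site in red and the other listed genes in grey, jittered vertically; genes with over 15 sites lie off the axis. Junb and Dusp1 have 3 sites in spans of 1840 and 2882 bp, and Per1 has 4 sites in 14858 bp.

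The genes for AP-1, the dimeric transcription factor formed by JUN and FOS family proteins, differed in whether a site was listed. Junb encodes a JUN family subunit from a single exon (mm10, chromosome 8, 84976909 to 84978748, minus strand). Its 3 sites were at positions 84977644, 84977591 and 84977545, with levels of 9.09%, 8.0% and 8.0%. The 3 sites lay 53 and 46 bases apart, at 1104 to 1203 bases from the 5′ end of the 1840 bp gene, and all were above the upper quartile of the whole list. The mean was 8.36% ± 0.63 (SD across 3 sites of 1 gene).

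Other genes with 3 sites were rarely so compact. Junb's sites spanned 99 bases. The median span of sites was 10056 bases over the 750 genes with exactly 3 sites. Among the 44 of these that were under 5 kb long the median was 909.5 bases, and only 1 had its sites closer together than Junb. Its levels were also close to each other: the highest and lowest differed by 1.09 percentage points, against a median difference of 4.77 points in those 44 genes, where 3 had a narrower range. Sites so close together can be read in the same molecules, so they are not independent readings of the gene. The exact value 9.09% was shared by 204 listed sites and 8.0% by 177. Read depth at the sites is not given, so the likeness of the Junb levels was not checked against it.

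Jun, the founding AP-1 subunit and also a gene of a single exon (chromosome 4, 95049036 to 95052222, minus strand), had lower levels. The sites at positions 95051181 and 95050117 were edited at 2.80% and 2.68%. They were 1064 bases apart, 1041 and 2105 bases from the 5′ end, and both fell below the median of the list. Of the 89 genes under 5 kb with exactly 2 sites, 5 had levels closer together than Jun. The 3 Junb levels were all above the 2 Jun levels, an order that was not checked against read depth. Fos (chromosome 12, 85473890 to 85477274) and Fosb (chromosome 7, 19302696 to 19310118), which encode the partners of JUN proteins in AP-1, had no listed site.

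The other transcription factor genes carried few sites. Npas4, which encodes a calcium-induced bHLH-PAS factor expressed mainly in neurons (chromosome 19, 4984353 to 5003439, minus strand), had its single site at position 4989853 with a level of 18.2%. This was the highest level among the members, and 96.8% of all listed sites were lower. Genes with a single site had higher listed levels in general, with a median of 6.06% over 3408 such genes, and 93.1% of these were below Npas4. Whether these levels follow read depth was not tested. The exact value listed for Npas4 was shared by 191 of the 17755 sites, and the coverage behind it is unknown.

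The Npas4 site stood close to a transcription start. The annotated span begins farther upstream, but the RefSeq promoter table places a start at 4989971, only 118 bases before the site. Of the 14 member sites this was the only one within 200 bases after a start (7.14%), against 4.10% of the listed sites whose gene had a start upstream of them in that table. The median level of those 556 sites was 3.51%, and 97.3% of them were below Npas4.

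Nr4a1, the orphan nuclear receptor also called Nur77 (chromosome 15, 101253902 to 101274795, plus strand), had 1 site at position 101270365 with a level of 4.55%. It lay 3519 bases after the listed start and 4430 bases before the 3′ end. Its level was above the median of the list, but 37.3% of the genes with a single site had a lower one. Egr1, a zinc finger transcription factor gene (chromosome 18, 34861207 to 34864956), had no listed site.

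**Figure D2:**
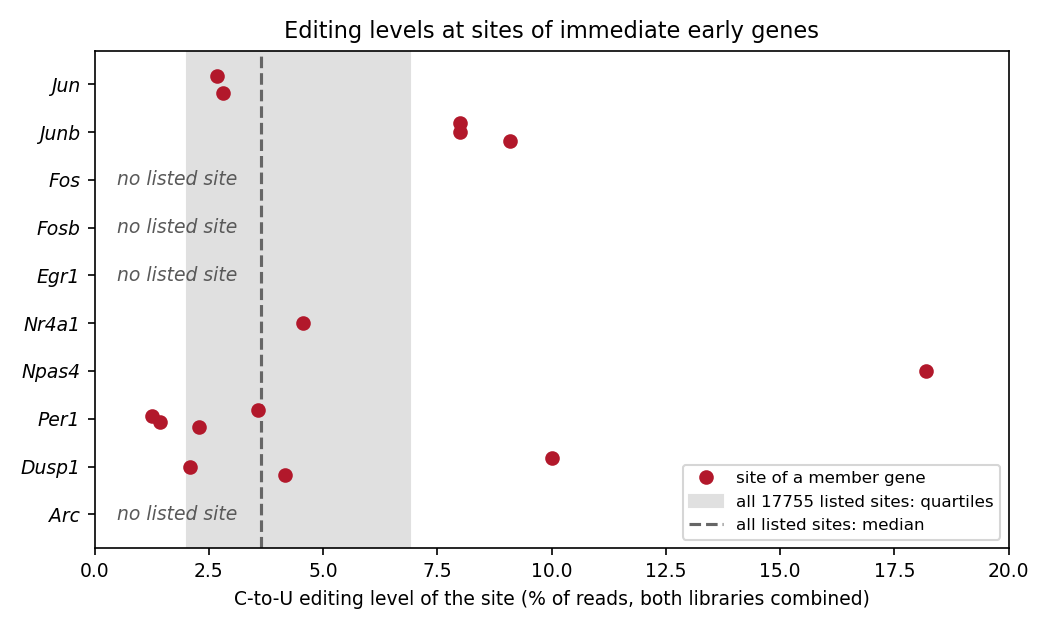
Editing level in percent (horizontal axis) of each listed site of the 10 genes (rows); each red point is 1 site with both libraries combined, the grey band gives the quartiles and the dashed line the median of all 17755 listed sites. The 4 Per1 sites and both Jun sites lie below the median of 3.64%, all 3 Junb sites lie at 8.0% or more, and Npas4 is highest at 18.2%.

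Per1 encodes a repressor of the circadian clock that is also induced by neuronal activity (chromosome 11, 69095108 to 69109965, plus strand). It had the most sites and the lowest mean level of the 6 genes. The sites at 69101020, 69102198, 69104764 and 69106859 were edited at 2.29%, 1.44%, 1.26% and 3.57%, a mean of 2.14% ± 1.05 (SD across 4 sites). All of them were below the median of the list, and the lowest was just over the 1.0% at which the list begins. Over the 452 genes with exactly 4 sites the median of the mean levels was 4.23%, and 10.4% of these genes had a lower mean than Per1.

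The Per1 sites were spread over 5839 bases, the closest pair 1178 bases apart. The median spread over genes with 4 sites was 16016 bases. The site nearest the 3′ end was still 3106 bases from it, and the one nearest a listed start was 868 bases after it. Per1 had 0.27 sites per kb of span, more than 94.2% of the 5728 protein-coding genes of 5 kb or longer that had a site inside their span. That set has no upper limit of length, and Per1 spans 14858 bp, so the genes compared are not of like length.

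Dusp1 encodes a nuclear phosphatase that switches off MAP kinases after they have induced the early genes (chromosome 17, 26505591 to 26508472, minus strand). Its 3 sites were unequal. The levels were 4.17% at position 26507689, 2.08% at 26506340 and 10.0% at 26506033, a mean of 5.42% ± 4.10 (SD across 3 sites). The highest was the one nearest the 3′ end, at 442 bases from it, and the lowest lay 307 bases upstream of that site. The highest and lowest differed by 7.92 percentage points, a wider range than in 31 of the 44 genes under 5 kb with 3 sites. Dusp1 and Junb thus had the same number of sites in short genes. Those of Dusp1 spread over 1656 bases with unequal levels, and those of Junb over 99 bases with like levels. The exact Dusp1 values 4.17%, 2.08% and 10.0% were shared by 160, 73 and 198 listed sites. The levels of both genes were not checked against read depth, which is not given. Arc (chromosome 15, 74669081 to 74672570), whose protein acts at synapses in the internalisation of AMPA receptors, had no listed site.

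**Figure D3:**
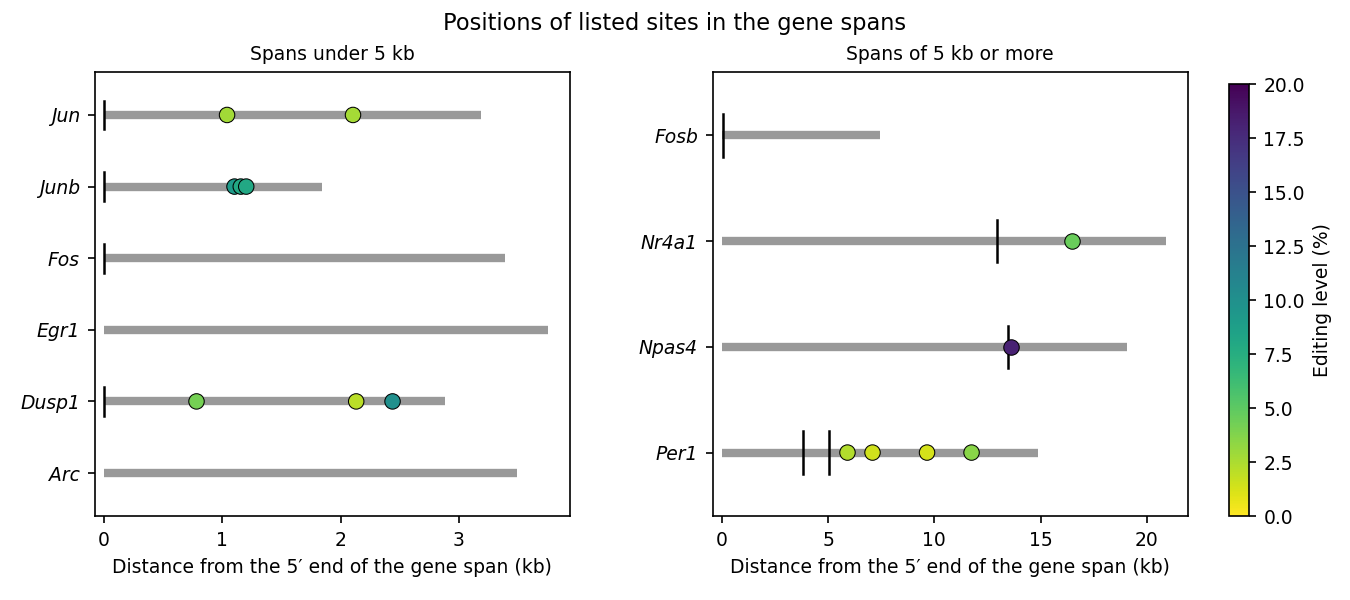
Each grey bar is a gene span drawn from its 5′ end (kb on the horizontal axes, genes under 5 kb on the left and longer genes on the right), points are listed sites coloured by editing level in percent, and black ticks are starts in the RefSeq promoter table, which had no entry for Egr1 or Arc. The 3 Junb sites fall together at 1104 to 1203 bases, and the Npas4 site lies 118 bases after a start.

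The member sites lay in several parts of the gene spans. Within 1 kb of the 3′ end lay 5 of the 14 sites (35.7%), namely the 3 of Junb and 2 of Dusp1. The same window held 16.1% of all sites inside matched spans. In spans under 5 kb, where 1 kb is a larger part of the gene, it held 5 of the 8 member sites (62.5%), against 46.4% of all sites in such spans. Within 500 bp of the 3′ end there was 1 member site, that of Dusp1 at 10.0% (7.14%, against 7.51% of all sites inside spans), and within 2 kb there were 6 (42.9%, against 29.8%). The table gives gene spans without exons or coding regions, so for the genes with introns it was not determined whether a site was exonic. Another site of the same gene within 100 bases was found for the 3 Junb sites (21.4% of the 14), against 22.8% of all listed sites.

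As a set, the member levels lay on both sides of the median of the list. The 14 sites ranged from 1.26% to 18.2% with a median of 3.87%, against 3.64% for all sites, and 7 were above the list's median and 7 below. The median of the 6 gene means was 4.98%, against 5.0% over all listed genes. At least 10% was reached by 2 of the 14 sites (14.3%), against 14.9% of all sites. The lowest level that can be called depends on the reads at a site, which the list does not give, so the order of the members by level was not checked against depth.

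Immediate early genes are known to be induced through short elements in their promoters, and these were read for the members, although no member site fell inside a promoter window. The RefSeq table (GRCm38.p6, the assembly that mm10 names) held 9 windows for 8 of the 10 genes, and the 250 bases before each start were searched on both strands. The core of the cAMP response element, TGACG, bound by CREB family factors, was in 8 of the 9 windows, in all genes with an entry except Jun. It was in 17.8% of all 32851 windows and in 27.7% of the 7747 windows of protein-coding genes whose GC content lay in the range of the members, 58.4% to 74.4%. Members with listed sites and members without (Fos and Fosb) both carried it. The full element TGACGTCA, which contains the core on each strand, was in 1 member window, that of Dusp1, against 1.55% of all windows and 2.93% of those with like GC content. The clock element CACGTG was found in Dusp1 and Per1, in 2 of the 9 windows, against 6.02% of all windows and 9.77% of those with like GC content. TATAAA was in the Fos window, against 12.4% of all windows and 3.34% of those with like GC content. The AP-1 sequence TGANTCA and the CArG box of serum response factor were in none of the 9. Elements farther upstream than 250 bases were not searched, and Egr1 and Arc had no window. TGANTCA was in 6.75% of all windows and 3.47% of those with like GC content, and the CArG box in 1.47% and 1.01%. The following stretches of 30 bases, written 5′ to 3′ on the strand of the gene with the motif in capitals, show the elements of 4 members; positions are counted back from the start.
Dusp1, full element at -143 to -136, chr17:26508597-26508626, minus strand: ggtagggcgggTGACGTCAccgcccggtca
Npas4, core at -179 to -175 on the opposite strand, chr19:4990134-4990163, minus strand: ctctcccgttcgaCGTCAcgggatgacgtc
Fos, core at -66 to -62, chr12:85473811-85473840, plus strand: cagttccgcccagTGACGtaggaagtccat
Per1, core at -132 to -128 of the start at 69100152, chr11:69100007-69100036, plus strand: tgagctcagcggcTGACGtcggtttccctg
Per1, clock element at -166 to -161 of the start at 69098949, chr11:69098771-69098800, plus strand: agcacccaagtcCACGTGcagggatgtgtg
The Npas4 stretch holds a further core, in lower case, at -169 to -165. These matches describe the letters and do not show binding.

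Close relatives of the members carried sites in 3 of 16 cases (18.8%), against 28.3% of all protein-coding genes. Their median span was 14920 bp, against 17146 bp for all protein-coding genes. Npas3, a bHLH-PAS relative of Npas4, had 6 sites with a mean of 6.28%, and Npas2 had 1 at 21.4%. Per3, a clock gene of the PER family, had 3 sites with a mean of 2.67%, between 2.15% and 3.33%, all below the median of the list as in Per1. The 13 relatives without a site were Jund, Fosl1, Fosl2, Egr2, Egr3, Egr4, Nr4a2, Nr4a3, Dusp2, Dusp4, Dusp5, Npas1 and Per2. Singled out after the values were seen, the relatives from the AP-1, EGR, NR4A and inducible nuclear DUSP families had a site in 0 of 11 cases. Their median span was 8241 bp. Among protein-coding genes between 5 kb and the length of Nr4a1, 24.0% had a site.

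A wider list of 50 activity-regulated genes had 13 members with a site (26%), against 28.3% of all protein-coding genes. It also holds Jund, Fosl1, Fosl2, Egr2, Egr3, Egr4, Nr4a2, Nr4a3, Dusp4, Dusp5 and Per2, close relatives without a site. They count in the shares of both lists. The genes of this list are shorter, with a median span of 7886 bp against 17146 bp. Among protein-coding genes between 5 kb and the length of Nr4a1 the share was 24.0%, and under 5 kb it was 8.54%. Dusp6, a cytoplasmic phosphatase of ERK, Ier5 and the kinase gene Sik1 had 3 sites each, with mean levels of 4.42%, 4.07% and 3.71%. Cebpb, a bZIP transcription factor gene, had 2 sites with a mean of 8.66%. In the list of 20 other DUSP genes, some of which are in the wider list too, 6 had a site (30.0%, against 28.3%). The median span of these DUSP genes was 11846 bp. Dusp3 led with 8 sites and a mean of 4.36%, followed by Dusp6, and Dusp16 and Dusp8 had 1 site each at 15% and 10%.

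The genes acting upstream of the early response carried sites more often than all protein-coding genes, and they are longer. Of 26 regulators 20 had a site (76.9%), against 28.3% of all protein-coding genes. Their median span was 64971 bp, against 17146 bp. The coactivator gene Crebbp had 13 sites with a mean level of 2.44%, and the calcineurin subunit gene Ppp3ca had 8 with a mean of 4.59%. Mkl2, a cofactor of serum response factor listed as Mrtfb in RefSeq, had 6 with a mean of 12.3%, between 1.94% and 47.4%. The kinase gene Camk2a had 4 with a mean of 7.89%. The circadian clock genes other than Per1 had sites in 15 of 22 cases (68.2%, against the same 28.3%) at a median span of 34347 bp. Rora had 9 sites with a mean of 5.79%, Hlf 5 with a mean of 5.55% and Rorb 5 with a mean of 4.57%. The shares of these lists are not comparable in length with those of the members, whose median span was 3620 bp. No share is given here for protein-coding genes as long as the regulators or the clock genes.

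**Figure D4:**
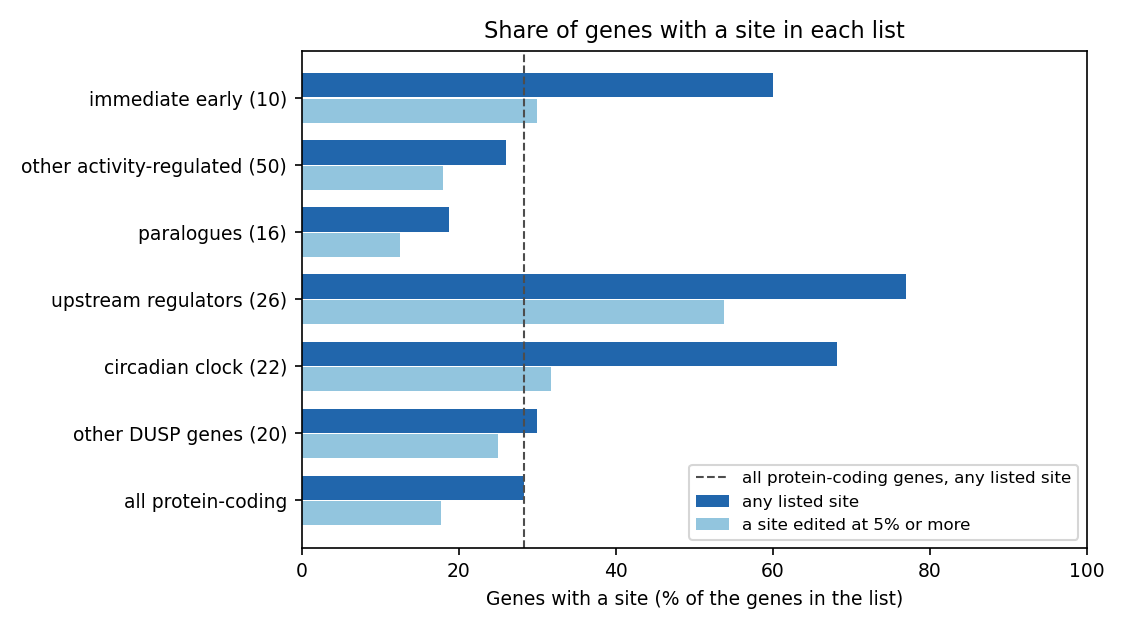
Percentage of the genes in each list with any listed site (dark bars) and with a site edited at 5% or more (light bars); the number of genes is in brackets and the dashed line marks the 28.3% of all protein-coding genes with any site. The immediate early genes reach 60.0% and 30.0%, the upstream regulators 76.9% and 53.8%, and the paralogues 18.8% and 12.5%.

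With only sites of 5% or more, 3 of the 10 members remained (30.0%), against 17.7% of all protein-coding genes. These were Junb, Npas4 and Dusp1. At 10% or more, Npas4 and Dusp1 remained (20.0%, against 8.61%), each with 1 site. Jun and Per1 were listed through sites under 5% only, and so was Nr4a1.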

How the data were processed

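The deposited list gave for each site an editing fraction, which was multiplied by 100. Per the series text, the authors found the sites with the Bullseye pipeline. The submitters' processing notes name STAR 2.7.5 and mm10. The sources used here do not state Bullseye's settings and control, a minimum of coverage or how both libraries became 1 list. The labels give polyA RNA in one field and a kit for total RNA in the protocol.

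Members were taken by gene name. Gene names were matched to RefSeq GRCm38.p6 by symbol or by a synonym of a single gene (6456 of 6929 matched), and distances were counted along the span on the strand of the site. Of the sites inside a promoter window, all 255 were C on the listed strand. Genes of each list were named by number of sites, up to 4 a list; an item that this rule names is not reported here. Members and lists were chosen with earlier results of these data known. Python 3.11.15 and pandas 2.3.3 were used, and the functions were tested on simulated data. Alternatives were minimum levels of 2%, 5% and 10%, windows of 500 bp and 2 kb, and gene means or maxima.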

Additional observations from a re-analysis of the deposited data

How the results depend on the processing

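Of 25 recomputed counts 15 stayed within 1.5 times the count given in the report and 10 moved further, and 3 medians were recomputed. At a minimum of 5% the members had 5 sites in 3 genes, and 7 clock genes had a site. At 10% the members had 2 sites in 2 genes, and a site was left in 2 genes of the wider list, 9 regulators, 6 clock genes and 2 DUSP genes. The median member level, 3.87% over all member sites, was 4.98% over gene means and 6.82% over gene maxima. Over all listed genes these medians were 5.0% and 6.45%. Over member sites of at least 2% the median was 4.36%. In the last 500 bp lay 1 member site. The base before the edited C and the AAC or GAC context were planned for the member sites and not run, as no genome was used here. No paired analysis was possible because the list has no values per library, and for the same reason neither library could be left out. Depth is unknown, so a member without a site is not shown to lack m6A.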

Other observations

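Of the 255 listed sites of any gene that fell in a RefSeq promoter window, G preceded the edited C at 130, C at 55, A at 42 and T at 27, and 1 lay at the edge of its window. The m6A context AAC or GAC has A before the C. The fusion converts cytidines near m6A, so an edited C need not be the C of that context. The 255 sites are only those of the 17755 that lie in windows around starts. The base composition of the windows was not set beside the counts. None of these sites belongs to the 10 immediate early genes.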
